A study of Homo sapiens with 8 samples.

Results

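The genes described here encode the subunits of hypoxia-inducible factor (HIF) and the enzymes that sense oxygen for it. They are 10 genes taken by symbol: the alpha subunits HIF1A, EPAS1 and HIF3A, the beta subunits ARNT and ARNT2, the prolyl hydroxylases EGLN1, EGLN2 and EGLN3, the ubiquitin ligase receptor VHL and the asparaginyl hydroxylase HIF1AN. All 10 were found among 19774 genes with a probe set annotated to exactly 1 symbol, and all 10 were among the 14517 genes bright enough to be tested. They carried 33 probe sets, of which 22 reached the level filter (a mean log2 level of 3.21 over all arrays). Each gene is given by its brightest probe set unless another is named.

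The study profiled total RNA of 4 neuroblastoma lines, each exposed over 48 h to the iron-chelating antifungal ciclopirox at 2.5 µM or to vehicle, and grown in RPMI medium. The lines were SK-N-AS/shHIF1A (labelled SKNAS/shHIF1a), described as a stable HIF1A knockdown and by its name made in SK-N-AS, then SK-N-AS (SKNAS), NB1691 and SK-N-BE(2) (SKNBE2). The labels give c-Myc for SK-N-AS and N-Myc for NB1691, SK-N-BE(2) and also the SK-N-AS derivative, and name neither a clone nor a control hairpin. There were 8 Affymetrix arrays with no repeats, and separate cultures are not stated. SK-N-AS and its derivative count as separate lines although they share an origin, so the 4 lines are not independent. An SD here is a spread between lines. Every SE is from limma, which combines the spread of the drug response between lines with a prior spread estimated from all genes. This holds also where levels are compared between lines, since the 2 arrays of a line differ in treatment. The number of arrays limits the precision.

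Array medians lay between 3.47 and 3.52. Of 8 noradrenergic neuroblastoma markers 7 had a probe set, and their mean level was 6.55 to 7.52 on the arrays of the SK-N-AS-derived lines and 9.43 to 9.97 on those of NB1691 and SK-N-BE(2). The mean of 8 mesenchymal markers was 9.69 to 10.60 on the arrays of the SK-N-AS-derived lines and 6.85 to 7.62 on those of the other lines. Lymphoid and myeloid, epithelial and endothelial lists averaged 2.83 to 5.0 on every array, with 2 of 5, 5 of 6 and 4 of 6 measured markers at the filter. Within the lymphoid list PTPRC stood out, with 6.34 under ciclopirox and 9.57 under vehicle in the derivative and 10.42 and 11.53 in SK-N-AS, against 3.03 to 3.29 in NB1691 and SK-N-BE(2). The epithelial keratin KRT18 read 7.21 under ciclopirox and 6.69 under vehicle in the derivative and 10.87 and 10.34 in SK-N-AS, against 3.08 to 3.38 in the other lines. The endothelial receptor TEK read 6.97 and 6.78 in the derivative and 2.74 to 3.63 on the other arrays. The markers VWF, KRT19, EPCAM and CD68 of these lists were instead highest in NB1691 under both treatments. There VWF read 6.15 under ciclopirox and 4.94 under vehicle, KRT19 4.47 and 4.85, EPCAM 4.33 and 5.0, and CD68 5.38 and 4.31. The part of these markers in the results below was not tested. In bulk RNA, fewer cells of a type and less RNA per cell cannot be told apart.

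HIF is a pair of one alpha and one beta subunit that binds DNA at hypoxia response elements and switches on genes for glucose use, blood vessel growth and iron supply. With oxygen present, the EGLN enzymes hydroxylate prolines of the alpha subunit, VHL binds the hydroxylated protein and marks it for destruction, and HIF1AN hydroxylates an asparagine, which blocks coactivator binding. These hydroxylases hold iron at the active site and use 2-oxoglutarate, so iron chelators can stabilise the alpha subunits. That control acts on protein, and the arrays measured RNA. EGLN1 and EGLN3 are themselves known HIF target genes, and EPAS1 is expressed in the developing sympathetic nervous system, from which neuroblastoma arises.

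The RefSeq promoter windows show which members carry the HIF core letters next to their start site. The windows hold the 250 bases before the annotated start (GRCh38.p14), and 8 of the 10 members had 12 windows between them, with none for ARNT2 and VHL. The core was searched as ACGTG and as GCGTG on both strands, so that a CACGTG palindrome counts once on each. Of 35116 RefSeq windows of this length, 18.5% held ACGTG, 32.2% held GCGTG and 43.2% held either, and 5 of the 12 member windows (41.7%) held either. The next lines print those of EGLN1, HIF3A and EPAS1, whose ciclopirox values differ most from vehicle, and of EGLN3 for contrast with EGLN1, 5′ to 3′ on the gene's strand with the motifs in capitals.
EGLN1, chr1:231422288-231422537, minus strand: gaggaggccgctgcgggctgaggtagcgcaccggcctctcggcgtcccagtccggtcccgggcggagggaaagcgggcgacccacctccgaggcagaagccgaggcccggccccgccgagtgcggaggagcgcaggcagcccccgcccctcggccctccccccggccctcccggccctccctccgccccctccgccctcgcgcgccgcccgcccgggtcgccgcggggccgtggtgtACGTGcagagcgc
HIF3A, chr19:46296792-46297041, plus strand: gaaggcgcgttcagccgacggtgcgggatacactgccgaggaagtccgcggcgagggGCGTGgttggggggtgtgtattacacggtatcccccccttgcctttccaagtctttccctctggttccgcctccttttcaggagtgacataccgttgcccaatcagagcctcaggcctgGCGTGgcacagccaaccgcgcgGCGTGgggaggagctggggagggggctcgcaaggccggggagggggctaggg
EPAS1, chr2:46297157-46297406, plus strand: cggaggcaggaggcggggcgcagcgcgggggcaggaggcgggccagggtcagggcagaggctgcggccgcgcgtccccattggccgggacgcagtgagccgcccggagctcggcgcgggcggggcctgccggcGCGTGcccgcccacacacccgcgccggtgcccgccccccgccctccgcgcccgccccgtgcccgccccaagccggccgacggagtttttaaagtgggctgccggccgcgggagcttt
EGLN3, chr14:33951075-33951324, minus strand: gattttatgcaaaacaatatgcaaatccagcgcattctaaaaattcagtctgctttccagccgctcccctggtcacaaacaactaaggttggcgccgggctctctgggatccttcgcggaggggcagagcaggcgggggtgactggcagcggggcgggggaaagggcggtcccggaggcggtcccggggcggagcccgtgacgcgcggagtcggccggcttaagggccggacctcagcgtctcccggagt
EGLN1 had ACGTG at -13 to -9 from the start site. The first of 3 HIF3A windows had GCGTG at -193 to -189, -74 to -70 and -52 to -48, and the other HIF3A windows had neither. EPAS1 had GCGTG at -117 to -113. The EGLN3 window held neither form. Of the members not printed, EGLN2 had a palindromic CACGTG in 1 of 2 windows, HIF1A had GCGTG in 1 of 2, and ARNT and HIF1AN had neither. These are matches of letters in a short window, and no binding was measured.

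**Figure D1:**
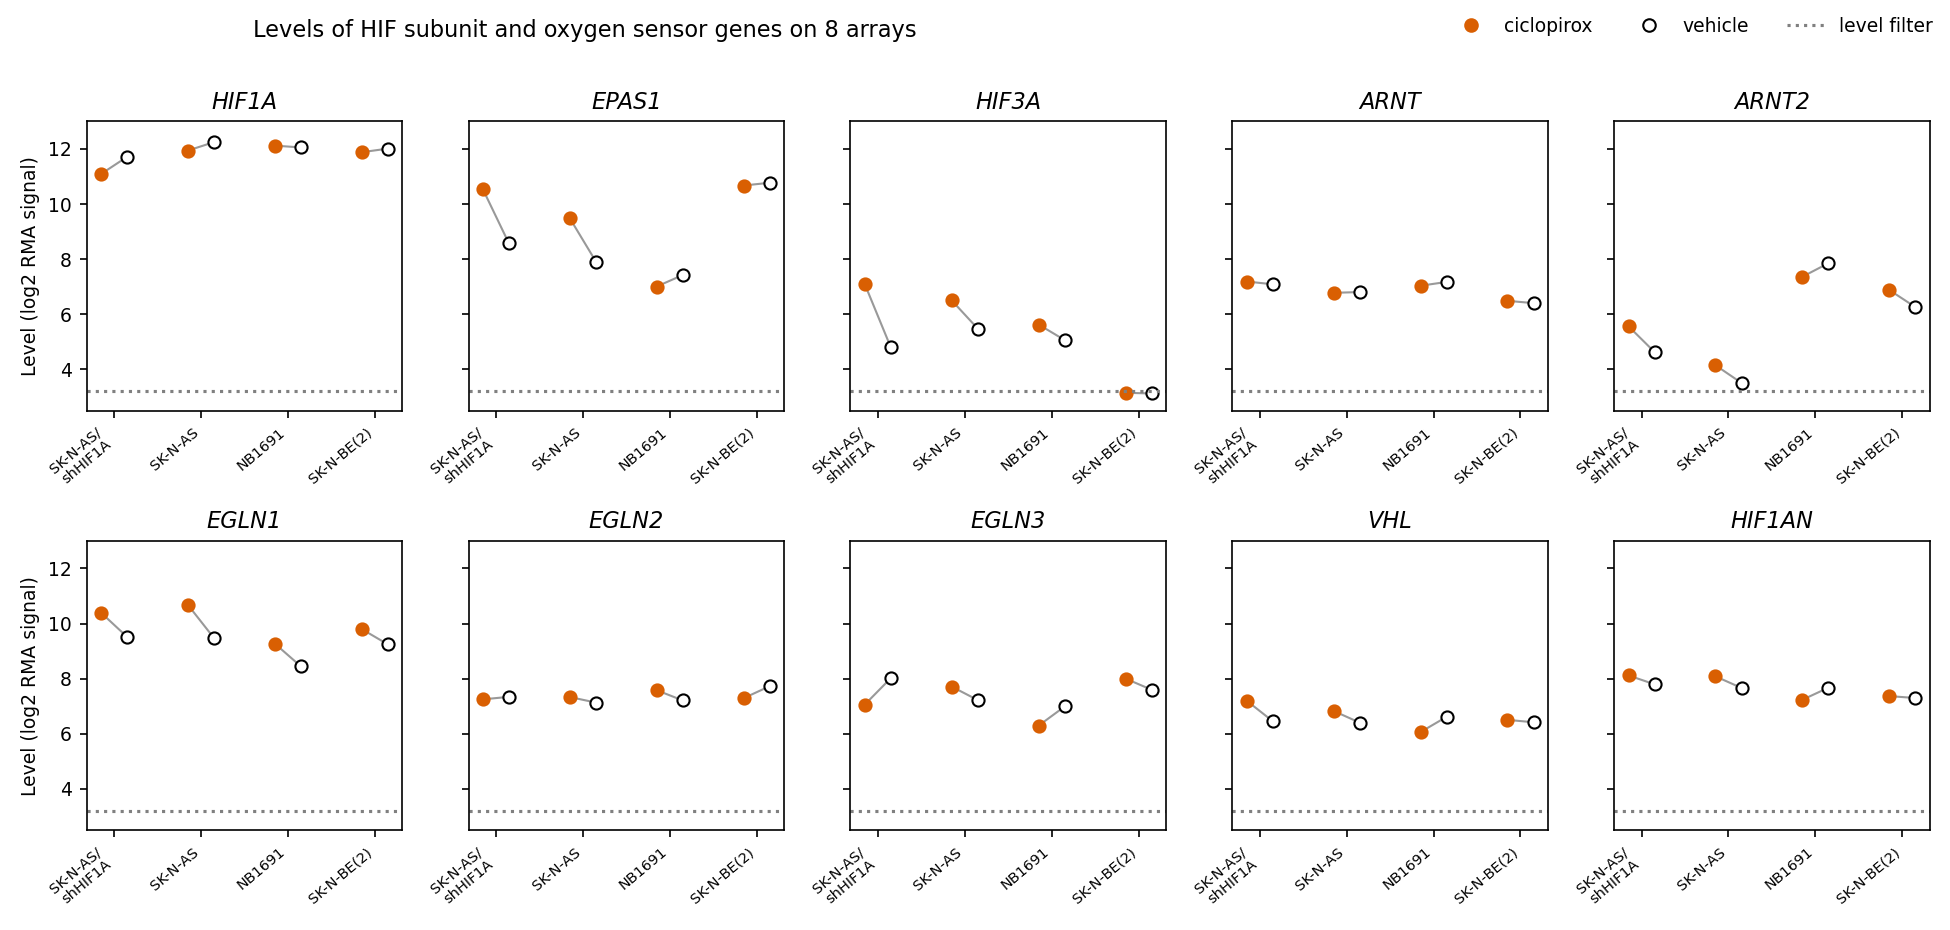
Level of each gene (vertical axis, log2 RMA signal of its brightest probe set) in the 4 lines (horizontal axis), with filled points for ciclopirox, open points for vehicle and a dotted line at the level filter of 3.21. Levels can be read across lines within a panel but not between panels, since each panel is another probe set. EPAS1 stands highest in SK-N-BE(2) under both treatments, and HIF3A lies under the filter there.

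HIF1A was examined first because it is the gene targeted in the derivative. Under ciclopirox its single probe set read 11.09 in the knockdown line against 11.94 in SK-N-AS, and under vehicle it read 11.71 against 12.25. The knockdown line was thus lower under each treatment, by 0.69 ± 0.21 on the log2 scale (SE, 2 arrays per line), or 1.62-fold on the linear scale, which missed the threshold in limma (adjusted p = 0.257). Of 2-fold shifts planted in simulated data, only 8% were recovered in this comparison. NB1691 had 12.12 under ciclopirox and 12.05 under vehicle, and SK-N-BE(2) had 11.88 and 12.01. HIF1A was therefore far above the level filter on every array, those of the knockdown line included, and the other 3 lines differed from each other by no more than 0.15 on average. Against NB1691 the knockdown line was lower by 0.69 ± 0.21 (SE, adjusted p = 0.0484 in limma). The unadjusted p in limma was alike in both comparisons, 0.0179 against NB1691 and 0.0171 against SK-N-AS. Of all genes tested, 37.2% passed the adjusted threshold against NB1691 and 1.58% against SK-N-AS. Ciclopirox gave HIF1A changes of -0.62 in SK-N-AS/shHIF1A, -0.31 in SK-N-AS, 0.07 in NB1691 and -0.13 in SK-N-BE(2), with a mean of -0.25 ± 0.15 (SE, n = 4 lines, adjusted p = 0.419 in limma). The change was larger in size in the knockdown line than in its parent, and with 1 array each that difference has no test.

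EPAS1, which encodes the HIF-2 alpha subunit, had the widest span of levels among the alpha subunits after HIF3A, 3.77 log2 units over the 8 arrays. Under ciclopirox it read 10.54 in SK-N-AS/shHIF1A, 9.48 in SK-N-AS, 7.01 in NB1691 and 10.67 in SK-N-BE(2). Under vehicle the same lines read 8.57, 7.91, 7.42 and 10.77. SK-N-BE(2) was highest under both treatments, and the knockdown line under ciclopirox came next. The changes were 1.97 in the derivative and 1.57 in its parent, while NB1691 had -0.42 and SK-N-BE(2) had -0.10. Both SK-N-AS-derived lines were thus higher under ciclopirox and the other lines were slightly lower. The same split of signs was found for 6.36% of all genes tested, and EPAS1 was the only 1 of the 10 members to have it. The difference in response between origins was 2.03 ± 0.27 (SE, 4 changes) and missed the threshold over all genes (adjusted p = 0.157 in limma). SK-N-AS and its derivative count as separate changes here although they share an origin, so the SE does not measure a spread between independent lines. The mean change over all lines was 0.75 ± 0.43 (SE, n = 4 lines, adjusted p = 0.401 in limma), and without SK-N-AS/shHIF1A it was 0.35. The other 2 EPAS1 probe sets lay below the level filter.

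HIF3A encodes an alpha subunit with several splice forms, some of which restrain the other alpha subunits. Its brightest probe set read 7.09 in SK-N-AS/shHIF1A, 6.50 in SK-N-AS, 5.63 in NB1691 and 3.15 in SK-N-BE(2) under ciclopirox. Under vehicle it read 4.79, 5.48, 5.06 and 3.12 in the same lines. The value was higher with the drug in every line, barely so in SK-N-BE(2), where both arrays lay under the filter. The changes were 2.30, 1.03, 0.56 and 0.03, with a mean of 0.98 ± 0.36 (SE, n = 4 lines, unadjusted p = 0.0348 and adjusted p = 0.252 in limma). Without SK-N-AS/shHIF1A the mean was 0.54. A dimmer probe set read 5.58 in the knockdown line and 5.37 in SK-N-AS under ciclopirox, against 3.11 and 3.78 under vehicle. In NB1691 and SK-N-BE(2) it lay below the filter under both treatments, as did the vehicle array of the knockdown line, so it passed the filter through its high arrays and its changes of 2.46, 1.59, 0.25 and -0.04 are in part differences from background. The other 2 probe sets above the filter, with mean levels near it, had differences of at most 0.55 in size in any line. A further 3 HIF3A probe sets lay below it. The deposited annotation does not say which splice form each probe set reads.

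The beta subunits differed from each other in pattern. ARNT, the common partner of all alpha subunits, spanned 0.79 log2 units over the arrays, with 7.19, 6.78, 7.03 and 6.49 under ciclopirox in SK-N-AS/shHIF1A, SK-N-AS, NB1691 and SK-N-BE(2), against 7.09, 6.81, 7.17 and 6.40 under vehicle. Its mean change was 0.00 ± 0.12 (SE, n = 4 lines, adjusted p = 0.988 in limma). The probe sets of ARNT did not agree, however. The next brightest had changes of 0.60, 0.43, 0.67 and 0.92 in the same order, a mean of 0.66 ± 0.13 (SE, n = 4 lines, unadjusted p = 0.0025 and adjusted p = 0.15 in limma over all probe sets). The other 2 above the filter were higher in all 4 lines as well, with means of 0.33 and 0.20. The brightest probe set and these 3 therefore differ on ARNT, and the annotation does not say which transcripts each reads.

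ARNT2, a partner found mainly in neural tissue, varied between lines more than any other member, over 4.35 log2 units. Its single probe set read 5.56 in SK-N-AS/shHIF1A, 4.15 in SK-N-AS, 7.36 in NB1691 and 6.88 in SK-N-BE(2) under ciclopirox, and 4.63, 3.5, 7.85 and 6.26 in the same lines under vehicle. The SK-N-AS-derived arrays all lay below those of the other lines. Ciclopirox changes were 0.94, 0.65, -0.49 and 0.62, so NB1691 had the opposite sign to the rest, and the mean of 0.43 ± 0.25 did not pass (SE, n = 4 lines, adjusted p = 0.404 in limma).

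**Figure D2:**
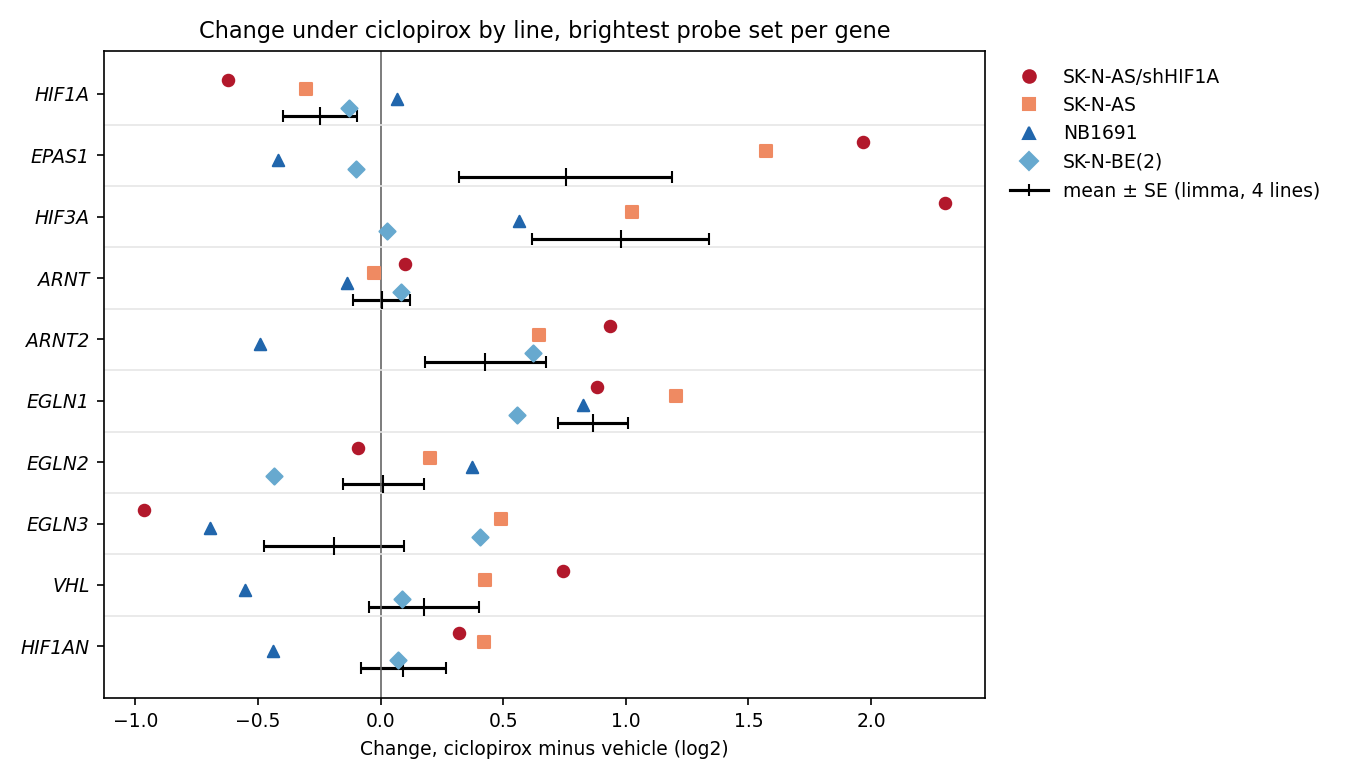
Change of each gene under ciclopirox (horizontal axis, ciclopirox minus vehicle in log2) for each of the 4 lines (coloured symbols), with the limma mean and SE over the lines in black. For EGLN1 all 4 symbols stand right of 0, between 0.55 and 1.20. For EPAS1 the SK-N-AS-derived lines stand right of 0, and NB1691 and SK-N-BE(2) stand left of it.

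EGLN1, the main prolyl hydroxylase acting on HIF1A, read higher with the drug in every line. It read 10.40 in SK-N-AS/shHIF1A, 10.68 in SK-N-AS, 9.27 in NB1691 and 9.80 in SK-N-BE(2) under ciclopirox, against 9.52, 9.47, 8.44 and 9.24 under vehicle. The differences were 0.88, 1.20, 0.83 and 0.55, and the groups overlap, since NB1691 under ciclopirox lay below 2 vehicle arrays. The group means were 10.04 ± 0.63 under ciclopirox and 9.17 ± 0.50 under vehicle (SD, n = 4 lines each). The mean change of 0.87 ± 0.14 (SE, n = 4 lines, unadjusted p = 0.000942) did not pass over all genes (adjusted p = 0.129 in limma), and it was 0.75 to 0.97 with any 1 line left out. The other 2 EGLN1 probe sets above the filter were higher in 3 lines, by 0.82 to 1.56, but lower in SK-N-BE(2), at -0.19 and -0.26. The positive value in SK-N-BE(2) therefore belongs to the brightest probe set alone, and a further probe set was below the filter.

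EGLN3, a prolyl hydroxylase linked to neuronal cell death after growth factor loss, split the lines another way. It read 7.06 in SK-N-AS/shHIF1A, 7.71 in SK-N-AS, 6.30 in NB1691 and 8.00 in SK-N-BE(2) under ciclopirox, and 8.02, 7.22, 6.99 and 7.60 in the same lines under vehicle. The knockdown line had a change of -0.96 and its parent 0.49, and NB1691 had -0.70 where SK-N-BE(2) had 0.41. The second EGLN3 probe set gave the same signs in every line, at -1.45, 0.34, -1.21 and 0.53. Knockdown derivative and parent thus had opposite signs in both probe sets, a difference with 1 array per line and treatment and no test. The mean change of -0.19 ± 0.29 (SE, n = 4 lines, adjusted p = 0.762 in limma) was 0.07 without SK-N-AS/shHIF1A.

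EGLN2, the remaining prolyl hydroxylase, spanned 0.60 log2 units over all arrays. Its levels were 7.25 to 7.58 under ciclopirox and 7.13 to 7.73 under vehicle, and the ciclopirox range lies inside that of vehicle. The changes of -0.09, 0.20, 0.37 and -0.44 in SK-N-AS/shHIF1A, SK-N-AS, NB1691 and SK-N-BE(2) averaged 0.01 ± 0.17 (SE, n = 4 lines, adjusted p = 0.978 in limma).

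VHL recognises the hydroxylated alpha subunits, and HIF1AN hydroxylates their asparagine. Both had small positive changes in the SK-N-AS-derived lines and negative ones in NB1691. VHL read 7.20, 6.83, 6.06 and 6.51 under ciclopirox in SK-N-AS/shHIF1A, SK-N-AS, NB1691 and SK-N-BE(2), and 6.46, 6.40, 6.62 and 6.42 under vehicle. The lines spread more under ciclopirox (SD 0.48) than under vehicle (SD 0.10, n = 4 lines each), a difference that was not tested. The VHL changes were 0.75, 0.43, -0.55 and 0.09, with a mean of 0.18 ± 0.22 (SE, n = 4 lines, adjusted p = 0.718 in limma). The difference of the VHL response between origins was 0.82 ± 0.31 (SE, 4 changes, unadjusted p = 0.0454 and adjusted p = 0.43 in limma). HIF1AN levels were 8.12, 8.09, 7.24 and 7.37 under ciclopirox in the same line order and 7.80, 7.66, 7.67 and 7.30 under vehicle. The HIF1AN changes were 0.32, 0.42, -0.44 and 0.07 (mean 0.09 ± 0.17, SE, n = 4 lines, adjusted p = 0.807 in limma). A positive mean was found in 2 of the 3 HIF1AN probe sets, and the third had -0.20.

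**Figure D3:**
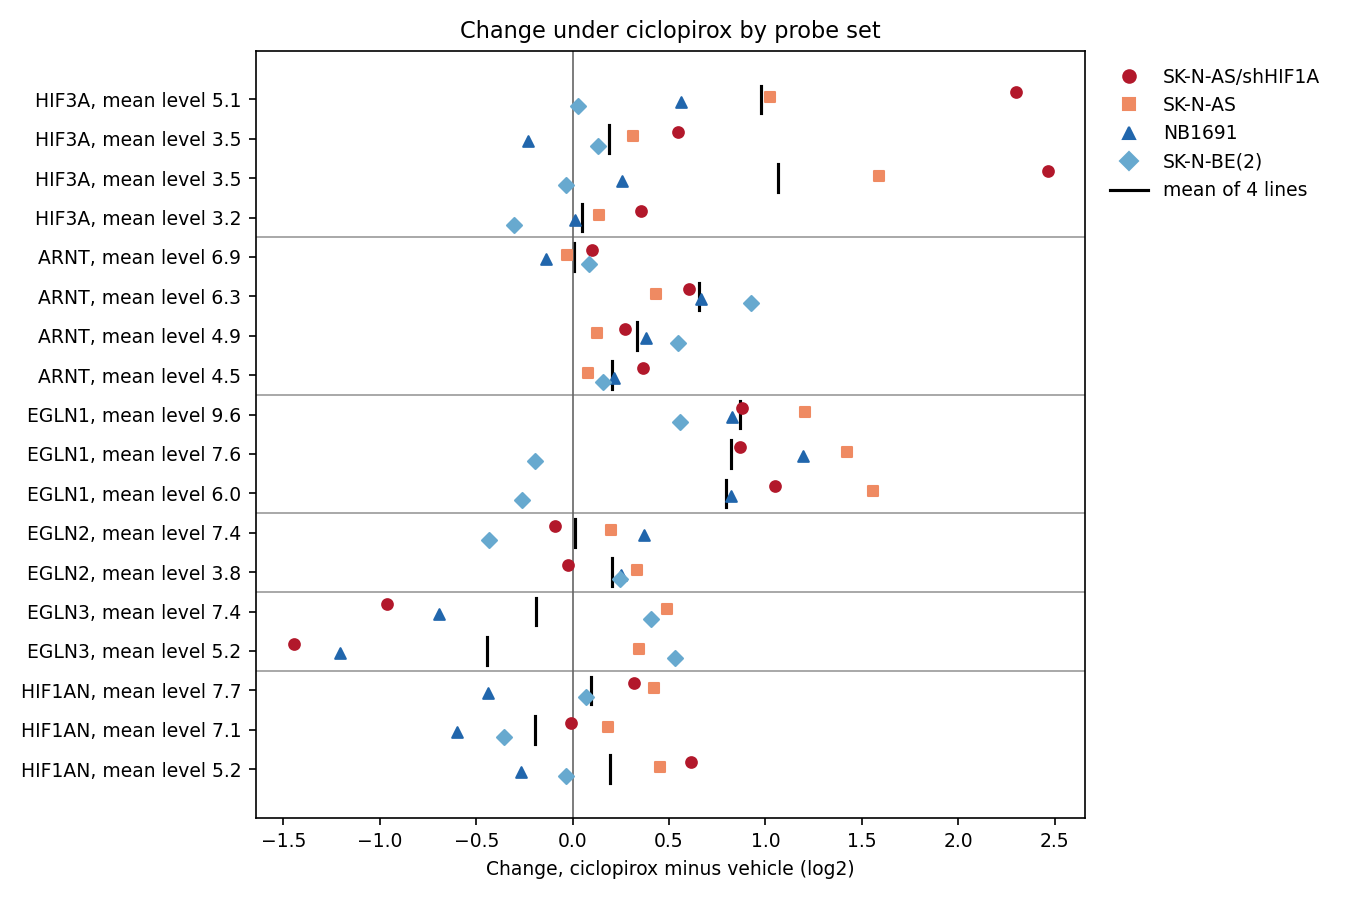
Change under ciclopirox (horizontal axis, log2) for every probe set above the level filter of the 6 genes that have more than 1, named with the mean level of the probe set, with symbols for lines and a black bar at the mean. The 2 EGLN3 probe sets have the same sign in each line, while the brightest ARNT probe set lies near 0 and the others are higher.

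Over all 10 members, 0 passed in limma at an adjusted p under 0.05 for ciclopirox, as did 0% of all genes tested. At an unadjusted p under 0.05 2 of the 10, EGLN1 and HIF3A, were higher and 0 were lower, beside 7.67% and 10.2% of all genes. The same 2 genes were higher in all 4 lines, which 11.8% of all genes were, and 0 members were lower in all 4, beside 16% of all genes. A change of at least 2-fold upward was found for 3 members in SK-N-AS (EPAS1, HIF3A and EGLN1), beside 3.38% of all genes there, and for 2 in SK-N-AS/shHIF1A (EPAS1 and HIF3A), beside 5.52%. None of the 10 reached a 2-fold change in NB1691 or SK-N-BE(2), or 2-fold downward in any line, beside 3.31% of all genes 2-fold higher in NB1691 and 2.11% in SK-N-BE(2), and 4.31%, 1.62%, 5.12% and 1.25% lower in the knockdown line, SK-N-AS, NB1691 and SK-N-BE(2). The median change over the members was 0.53 for the derivative, 0.46 for its parent, -0.28 for NB1691 and 0.08 for SK-N-BE(2), and the medians of all genes lay between -0.03 and -0.01. For the difference in response by origin, 0 members passed at the adjusted threshold in limma (0.0344% of all genes did), and 3 were higher at an unadjusted p under 0.05, EPAS1, HIF3A and VHL, beside 6.35% of all genes.

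Levels were then compared between lines. Between the SK-N-AS-derived lines and the others, 3 of 10 members passed in limma, beside 45.8% of all genes. ARNT2 was lower in the SK-N-AS-derived lines by 2.63 ± 0.25 on the log2 scale (SE, 4 arrays per side, adjusted p = 0.000538), 6.18-fold on the linear scale. HIF3A was higher there by 1.73 ± 0.36 (SE, adjusted p = 0.0104 in limma), but by 0.62 and without a call when SK-N-BE(2) was left out (adjusted p = 0.257 in limma), and the call also ended without SK-N-AS (adjusted p = 0.058 in limma). Without NB1691 the HIF3A difference was 2.83, and 5 members passed in limma, namely ARNT, ARNT2, EPAS1, HIF1AN and HIF3A. Without SK-N-BE(2) it was ARNT2, EGLN1 and EPAS1 that passed. Among all 14517 genes, 2886 passed as higher and 2880 as lower without NB1691, and 2894 and 2928 without SK-N-BE(2). EGLN1 was higher by 0.83 ± 0.14 (SE, adjusted p = 0.00523 in limma), and by 0.49 and without a call when NB1691 was left out (adjusted p = 0.087 in limma). HIF1AN was higher by 0.52 in its brightest probe set and just missed the threshold (adjusted p = 0.0523 in limma). Its other probe sets were higher by 0.80 and 0.94 and passed (adjusted p = 0.015 and 0.0059 in limma over all probe sets). The EPAS1 difference by origin was 0.16 ± 0.43 (SE, adjusted p = 0.796 in limma), with the highest and the lowest line both outside the SK-N-AS pair. It turned with the line left out, to -1.60 without NB1691 (adjusted p = 0.0461 in limma) and to 1.91 without SK-N-BE(2) (adjusted p = 0.0429 in limma), so it has no settled direction. In this fit the residual is the spread of the drug response between lines. With only the 4 vehicle arrays 0 members passed in limma, and of all 14517 genes only 153 passed as higher and 90 as lower. The noradrenergic and mesenchymal marker means given above separate the same lines, and their part in these differences was not tested.

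NB1691 and SK-N-BE(2) differed in 3 members, beside 25.1% of all genes. EPAS1 was lower in NB1691 by 3.51 ± 0.61 (SE, 2 arrays per line, adjusted p = 0.011 in limma), 11.4-fold on the linear scale, and this was the largest difference among the members in that comparison. HIF3A was higher in NB1691 by 2.21 ± 0.51 (SE, adjusted p = 0.0266 in limma), against levels below the filter in SK-N-BE(2). ARNT was higher in NB1691 by 0.66 ± 0.16 (SE, adjusted p = 0.0329 in limma), in its brightest probe set. Without SK-N-AS the HIF3A and ARNT calls were lost (adjusted p = 0.0605 and 0.0775 in limma), and without the knockdown line so was that of ARNT (adjusted p = 0.0594 in limma). The ARNT call also ended with an intensity trend, under which EGLN1 passed instead, and with only the arrays of the lines compared (adjusted p = 0.0772 and 0.0972 in limma). With the mean of all its probe sets, the difference was 0.40 for HIF3A and 0.10 for ARNT, and neither passed. Between knockdown line and parent, 0 of 10 members passed in limma (1.58% of all genes did), and at an unadjusted p under 0.05 HIF1A was lower and ARNT2 higher, beside 6.08% and 5.98% of all genes. ARNT2 was higher in SK-N-AS/shHIF1A by 1.27 ± 0.35 (SE, 2 arrays per line, adjusted p = 0.208 in limma). EPAS1 was 0.85 ± 0.61 higher and did not pass (SE, adjusted p = 0.731 in limma).

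**Figure D4:**
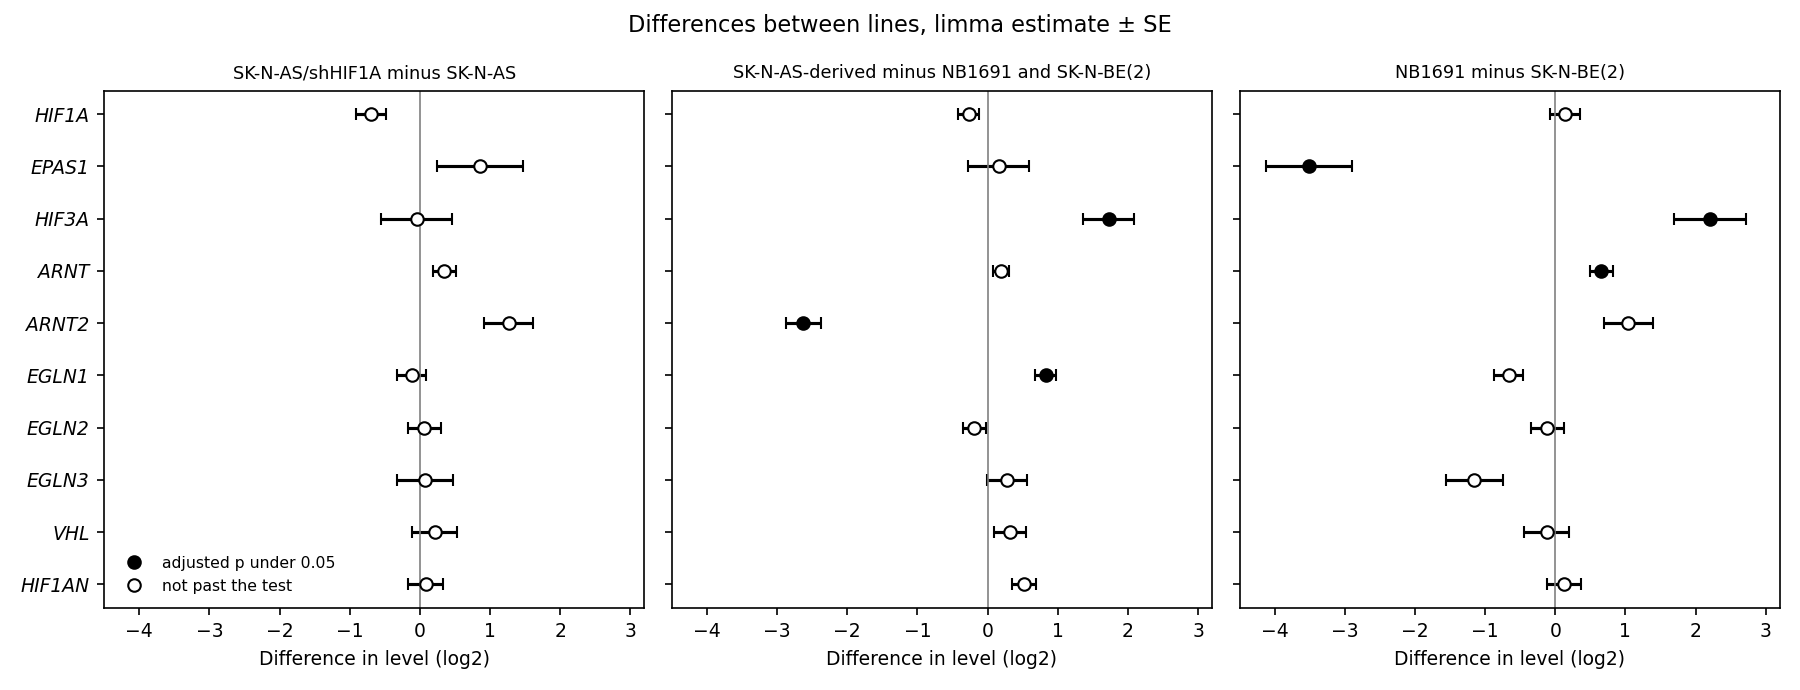
Difference in level between lines (horizontal axis, log2, limma estimate with SE bars) for each gene, with filled points past the adjusted threshold. ARNT2 at -2.63 in the middle panel and EPAS1 at -3.51 in the right panel stand farthest from 0, and no point is filled for the knockdown line against its parent.

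Line means over both treatments give an order for each gene, with neighbours compared in the same limma fit over 6 pairs of lines, each adjusted over all genes. The share of all genes past the test was 37.2% for the knockdown line against NB1691, 31.1% against SK-N-BE(2), and 37.7% and 30.9% for SK-N-AS against the same lines. Members past it numbered 4, 3, 2 and 2 in these pairs. For EPAS1 the order was SK-N-BE(2) at 10.72, SK-N-AS/shHIF1A at 9.55, SK-N-AS at 8.70 and NB1691 at 7.22, and no neighbouring pair passed. For HIF3A it was SK-N-AS at 5.99, SK-N-AS/shHIF1A at 5.94, NB1691 at 5.34 and SK-N-BE(2) at 3.14, and only the last step passed. ARNT2 ran from NB1691 at 7.61 and SK-N-BE(2) at 6.57 to SK-N-AS/shHIF1A at 5.09 and SK-N-AS at 3.83, and of these neighbours only the middle pair differed (adjusted p = 0.0246 in limma). EGLN1 ran from SK-N-AS at 10.07 over SK-N-AS/shHIF1A at 9.96 and SK-N-BE(2) at 9.52 to NB1691 at 8.86, with no neighbours past the test. EGLN3 ran from SK-N-BE(2) at 7.80 over SK-N-AS/shHIF1A at 7.54 and SK-N-AS at 7.47 to NB1691 at 6.64, again with none. The line means of HIF1A spanned 11.40 to 12.10, those of ARNT 6.45 to 7.14, those of EGLN2 7.23 to 7.51, those of VHL 6.34 to 6.83 and those of HIF1AN 7.33 to 7.96. No neighbours of these 5 genes passed.

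Genes whose levels followed a member most closely over the 8 arrays were taken by the root mean square difference of centred levels, for the 7 members that spanned at least 1 log2 unit. EGLN1 was followed by MYPOP at 0.18, by ERO1A, an oxidase of the endoplasmic reticulum and itself among the HIF targets below, at 0.21, and by the spectrin SPTAN1 at 0.22. ERO1A had changes of 0.79, 0.89, 1.05 and 0.10 in SK-N-AS/shHIF1A, SK-N-AS, NB1691 and SK-N-BE(2). HIF1A was followed by MRPS24 at 0.10, URGCP at 0.13 and ABCB10 at 0.13. VHL was followed by BID, a death-promoting BCL2 family member, at 0.11, the noncoding RNA NORAD at 0.12 and ZFYVE27 at 0.13. EGLN3 was followed by the transcription factor MITF at 0.23, RBM15B at 0.23 and SLC35E2B at 0.26. For the members with wide spans the nearest genes lay farther off: SYNJ2 at 0.35 for HIF3A, with ZNF365 and CBR3 at 0.44, SESN3 at 0.36 for ARNT2, with PLD6 at 0.40 and SPOCK1 at 0.42, and for EPAS1 the transporter SLC12A7 at 0.55, IRX3 at 0.61 and KBTBD8 at 0.63. These are descriptions over 8 arrays of 4 lines, chosen as nearest among all genes, and nothing about function was tested.

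The genes around the members are given by lists chosen with earlier results known, and 0 genes of any of them passed for ciclopirox in limma. Of 7 measured genes of the VHL ubiquitin ligase and its neddylation, 4 were lower in all 4 lines and 1 was higher in all, with a median change of -0.20, beside 16% and 11.8% of all genes tested. RBX1, its RING subunit, had changes of -0.37, -0.39, -0.38 and -0.41 in SK-N-AS/shHIF1A, SK-N-AS, NB1691 and SK-N-BE(2), a mean of -0.39 ± 0.11 (SE, n = 4 lines, adjusted p = 0.187 in limma). CAND1, which exchanges cullin substrate receptors, averaged -0.29 ± 0.17 (SE, n = 4 lines, adjusted p = 0.413 in limma). At an unadjusted p under 0.05, 0 were higher and 2 lower, RBX1 and the ubiquitin-like NEDD8, beside 7.67% and 10.2% of all genes, the shares that also apply to the lists that follow. Among 27 HIF regulators and cofactors, with a median of 0.04, 2 were higher (WSB1 and SIAH2) and 2 lower (RUVBL1 and LIMD1) at that level. RUVBL1, an ATPase of chromatin remodelling complexes, was lower in all 4 lines by 0.66 to 1.07 and averaged -0.93 ± 0.13 (SE, n = 4 lines, adjusted p = 0.121 in limma). WSB1, a ubiquitin ligase receptor reported to act on VHL, averaged 0.88 ± 0.22 (SE, n = 4 lines, adjusted p = 0.174 in limma).

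Of 16 measured relatives of the HIF subunits in the bHLH-PAS family and their coactivators, 13 reached the filter. Of these, 5 were higher at an unadjusted p under 0.05 (BMAL2, NPAS2, PER1, PER2 and AHRR) and 0 were lower, and the median was 0.40. The circadian factors BMAL2 and NPAS2 were higher in all 4 lines, with means of 0.67 ± 0.16 and 0.58 ± 0.21 (SE, n = 4 lines, adjusted p = 0.164 and 0.245 in limma). In NB1691 and SK-N-BE(2), however, NPAS2 read 3.45 to 3.73, near the filter, with changes of 0.24 and 0.06. The other oxygen-dependent enzymes, 15 in number, had a median of 0.09, with 3 higher (KDM3A, JMJD6 and KDM6B) and 3 lower (JMJD4, RIOX1 and RIOX2) at that level. KDM3A, a histone demethylase and HIF target, averaged 1.22 ± 0.13 (SE, n = 4 lines, adjusted p = 0.121 in limma), and JMJD4 averaged -0.62 ± 0.18. Of 30 HIF targets 25 were higher and 0 lower at that level, beside 7.67% and 10.2% of all genes, and 22 were higher in all 4 lines, beside 11.8%. The median of the targets was 0.90 in SK-N-AS/shHIF1A, 1.67 in SK-N-AS, 0.42 in NB1691 and 0.84 in SK-N-BE(2). BHLHE40, a transcriptional repressor, averaged 2.46 ± 0.30 and NDRG1, a stress-response gene, 2.11 ± 0.34 (SE, n = 4 lines, adjusted p = 0.121 and 0.129 in limma). Of 5 measured targets reported to prefer EPAS1 4 reached the filter, and 0 were past an unadjusted p of 0.05 in either direction. Their median was 0.86 in the derivative, 0.93 in its parent, 0.21 for NB1691 and 0.12 for SK-N-BE(2). The largest mean changes were those of DLK1 at 0.67 ± 0.31 and the lipid droplet gene PLIN2 at 0.61 ± 0.53 (SE, n = 4 lines). The genes differed widely within a line. In SK-N-AS, DLK1 had a change of 1.781, PLIN2 1.804, CCND1 0.071 and EPO -0.157. In SK-N-BE(2) the same genes had -0.015, -1.322, 0.264 and 0.256. EPO lay near the filter, with a mean level of 3.253. The median change of all genes was -0.01.

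**Figure D5:**
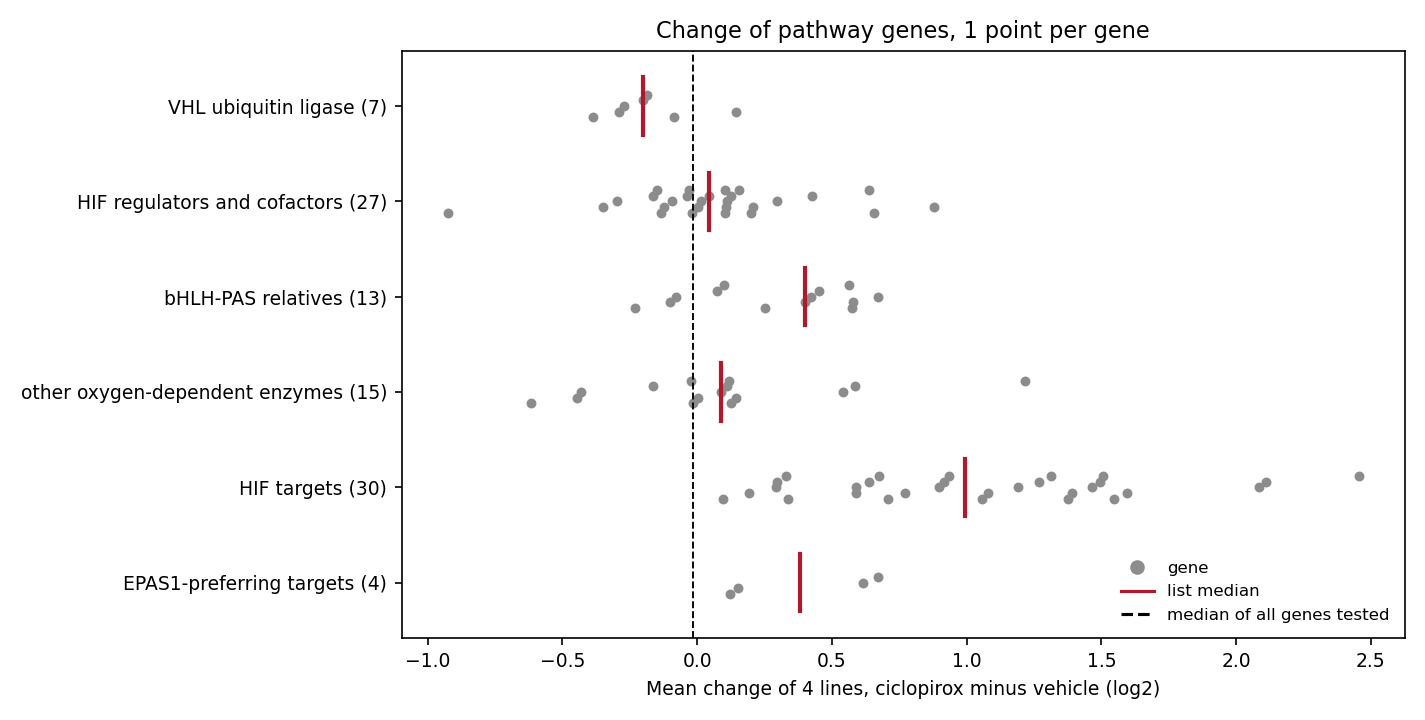
Mean change of 4 lines under ciclopirox (horizontal axis, log2) for each gene of the 6 lists, with the number of genes tested in brackets, a red bar at the list median and a dashed line at the median of all genes tested. The 30 HIF targets all lie right of 0 with a median of 0.99, and the VHL ubiquitin ligase genes have a median of -0.20.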

How the data were processed

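Levels were measured on Affymetrix arrays. The authors summarised each probe set by RMA, per the submitters' processing notes (version not given in the sources used here), and deposited it on the log2 scale. No scaling was added. Of 54715 probe sets, 102 were controls, 40914 carried 1 gene symbol in the platform annotation and 864 several. Each of 19774 genes was represented by its brightest probe set, and 14517 whose mean reached the 40th percentile over probe sets, log2 3.21, were tested.

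All comparisons used limma 3.58.1 in R 4.3.3, with treatment and cell line as terms over 8 arrays (3 residual and 2.98 prior degrees of freedom), Benjamini-Hochberg adjustment over all genes and a threshold of 0.05. Arrays were paired by cell line (Pearson r of relative levels 0.817 to 0.898 between the arrays of a line, across genes, which are not independent). The difference in response was fitted on 4 changes. Comparing every pair of lines was added after seeing the data. With 4 lines, flipping signs gives p = 0.125 at the least in an exact test, which was not used. The members and lists were chosen with earlier results of these data known. Other genes were named as the 2 of each list with the largest mean change, and as the 3 nearest patterns. PTPRC, CD68, KRT18, KRT19, EPCAM, VWF, TEK, NEDD8, SIAH2, LIMD1, PER1, PER2, AHRR, JMJD6, KDM6B, RIOX1, RIOX2 and EPO were named after their values were seen. The same holds for CCND1. Of 107 list entries 100 matched a gene, and the rest were not analysed here.

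The fit was tested on simulated data of 14517 genes: with 50 genes shifted per size, 32% at 2-fold, 92% at 4-fold, 94% at 8-fold and 98% at 16-fold were recovered for ciclopirox. For the difference in response the shares were 0%, 2%, 38% and 58%. In the measured data, 0 of 14517 genes passed for ciclopirox. These include BHLHE40 and NDRG1, with mean log2 changes of 2.46 and 2.11 (adjusted p = 0.121 and 0.129 in limma). Whether the recovered shares hold for the measured data was not tested. Alternatives are listed in the closing section. RefSeq promoter windows of GRCh38.p14 were searched by exact match.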

Additional observations from a re-analysis of the deposited data

How the results depend on the processing

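For ciclopirox against vehicle, 0 members passed in limma under each of the 14 alternatives run, which include no cell line block, SK-N-AS averaged with its derivative, each line left out, no level filter, a stricter one (60th percentile), the mean of probe sets, each probe set alone, median centring, quantile normalization, an intensity trend and a threshold of 0.1. EGLN1, HIF3A and EPAS1 kept a positive mean change under all 14. Leaving out the block, another level filter, an intensity trend and another threshold cannot alter that mean. The replicate block (cell line) matters for the spread: without it EGLN1 had the same mean of 0.87 and adjusted p = 0.99994 in limma. The mean over all probe sets, which includes those near background, was 0.63 for EGLN1, 0.35 for HIF3A and 0.24 for EPAS1. With SK-N-AS and its derivative averaged into 1 line, the mean change was 0.81 for EGLN1, 0.75 for HIF3A and 0.42 for EPAS1. Small means changed sign. ARNT was -0.00585 with the SK-N-AS lines averaged and -0.0144 with median centring, and EGLN2 was -0.00316 and -0.00768. HIF1AN was -0.20 in the probe set with its smallest adjusted p. With lines left out, the means ranged from -0.0273 to 0.0522 for ARNT, -0.109 to 0.160 for EGLN2, -0.418 to 0.0673 for EGLN3, -0.0135 to 0.420 for VHL and -0.0164 to 0.271 for HIF1AN.

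The number of members past the test by line origin was 2 to 5 with lines left out, 0 with the vehicle arrays alone, and 3 or 4 otherwise. Where it was 4 with all lines kept, HIF1AN was the member added. With the vehicle arrays alone, only 153 of all 14517 genes passed as higher and 90 as lower. The EPAS1 difference by origin was -1.60 to 1.91 with lines left out and -0.86 with the vehicle arrays alone. Between NB1691 and SK-N-BE(2) the number was 1 to 2 with SK-N-AS or its derivative left out and 1 (EPAS1) with the mean of probe sets. It was 6 at a threshold of 0.1, where 2489 of all 14517 genes passed as higher and 2403 as lower. It was 2 (EPAS1 and HIF3A) with only the arrays of the lines compared, and 3 otherwise, with EGLN1 in place of ARNT under an intensity trend. For the knockdown against its parent the number was 1 (ARNT2, adjusted p = 0.0473 in limma) with only the arrays of the lines compared and 0 otherwise. With those arrays 198 of all genes passed as higher and 195 as lower, against 108 and 122 in the main fit. For the difference in response the number of members was 0 throughout. The vehicle arrays and the arrays of 2 lines are fewer samples. The cause of these differences was not tested. A comparison with a line has no value where that line is left out. Levels near the filter, as for HIF3A in SK-N-BE(2), limit what a difference can show.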
